A study of Mus musculus with 2 samples.

Results

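The nuclear receptor superfamily was described in cultured mouse hepatocytes through 40 listed genes out of the 35275 genes counted. The members were taken by name, with Ensembl identifiers paired with GENCODE M21 symbols. No cut on a measured value was used, but earlier results of these data were known when they were chosen. All 40 were found in the count table. Of these, 30 had at least 10 reads over both libraries and are called measured here, 24 of them with at least 100 reads. The list spans the thyroid hormone, retinoid, lipid-sensing, xenobiotic, steroid and orphan receptors, but it is not the whole superfamily.

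Nuclear receptors are transcription factors with a zinc-finger DNA-binding domain and a ligand-binding domain, and many of them switch between corepressors and coactivators when a small lipophilic ligand binds. Many of the receptors that sense lipids and vitamins bind DNA as a dimer with a retinoid X receptor (RXR), whereas steroid receptors bind mostly as homodimers. In the liver these receptors set bile acid synthesis, fatty acid oxidation and storage, drug clearance and the responses to thyroid hormone and glucocorticoid.

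AML12 is a non-transformed mouse hepatocyte line, labelled as CD-1 strain, male, 3 months of age and liver, and it was derived from a mouse that carried a transgene for human transforming growth factor alpha. Control cells (labelled Young) received no peroxide. Senescent cells (labelled Old) were exposed on 6 successive days to hydrogen peroxide for 1 h, with 1 mM used to begin with and 750 μM later. They recovered for 23 h each day in medium with 100 nM dexamethasone, a glucocorticoid receptor ligand. Each condition was sequenced as 1 poly(A) library of RNA pooled from 3 samples, so no spread between samples could be measured and no test was possible.

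The control library held 28021941 reads on genes and the senescent library 25738075. A log2 ratio is senescent over control after scaling for library composition, and its 95% interval is a Clopper-Pearson interval that covers counting error only, since the reads carry no molecular identifiers. Each ratio therefore compares these 2 libraries. A call of higher or lower needs 10 reads or more in both libraries together, a log2 ratio past 1.5 and an interval that leaves out 0, and calls at a threshold of 1 are given beside these. Levels are in RPKM, which corrects the reads for exon length and scaled library size. In bulk RNA, fewer cells that express a receptor and less of its RNA per cell cannot be told apart. The hepatocyte markers checked were all measured (11 of 11), with a summed 8519 CPM (counts relative to scaled library size) in control and 10171 in senescent cells. Most of that sum came from the epithelial keratin genes Krt8 and Krt18 (5499 and 8295 CPM). The other 9 markers summed to 3020 and 1876. Among them Alb (albumin) fell from 32076 to 2917 reads and Apoa1 from 2026 to 197, and Ttr had 23146 and 10486. Apob went the other way, with 22158 and 25094 reads (log2 ratio 0.41). Over all 11 hepatocyte markers, 6 ratios were positive and 5 negative, with a median of 0.02. The macrophage markers Adgre1 and Clec4f had no reads. Csf1r (15 and 40 reads) and Ptprc (27 and 76) were higher in the senescent library, and Cd68 had 34 and 40 (log2 ratio 0.45, -0.23 to 1.17). The summed level of this list went from 193.5 to 82.1 CPM. Cd14 alone (5551 and 1879 reads) made up 190.9 and 75.8 CPM of it, so the fall in the sum is that of Cd14. Of 7 stellate cell and fibroblast markers 1 was measured, with a summed level of 0.928 and 0.323, and of 5 endothelial markers none was, with 0.172 and 0.524. Cholangiocyte markers summed to 1023 and 994.2. The part of any other cell type in the receptor values was not tested.

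Most of the measured receptors differed little between the libraries, and those past the main threshold were all lower in senescent cells. Past the threshold of 1.5, 5 of the 30 measured members fell (16.7%), against 5.60% of all 14383 genes tested, and 0 rose, against 2.71%. The 5 were Thrb, Rora, Nr1i2, Nr1i3 and Esrrb, which encode thyroid hormone receptor beta, RORα, the xenobiotic receptors PXR and CAR, and estrogen-related receptor beta. Of these, Thrb and Rora had at least 100 reads, so 2 of the 24 members with that many reads were lower. The 5.60% covers all genes with at least 10 reads and is no matched share for these 24. Most of the 16.7% comes from members with under 100 reads, namely Nr1i2 (45 and 8 reads), Nr1i3 (63 and 16) and Esrrb (21 and 2). At a threshold of 1, 8 members were lower (26.7%, against 9.98% of all genes), with Ppara, Nr1h3 and Vdr added, and 1 was higher (3.33%, against 5.09%), the gene Nr4a1. Its ratio was under 1 when scaled by total counts (0.93) or upper quartiles (0.99). Of the members near a threshold, Thrb (-1.66) and Nr1i3 (-1.69) lay past 1.5 and Nr1h3 (-1.17) short of it. Nr4a1 (1.03) and Ppara (-1.05) lay just past 1, and Rxra (-0.57) and Nr6a1 (0.70) short of it. Rarb (1.31) and Nr0b2 (-1.13) were past 1 with an interval that holds 0. The share of members within 0.5 of a log2 ratio of 0 was 56.7% (17 members), against 58.1% of all genes, and the median ratio was -0.09 for the members and -0.02 for all genes. The ratio was positive in 13 members and negative in 17. The interval lay above 0 in 9, below 0 in 13 and over 0 in 8.

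**Figure D1:**
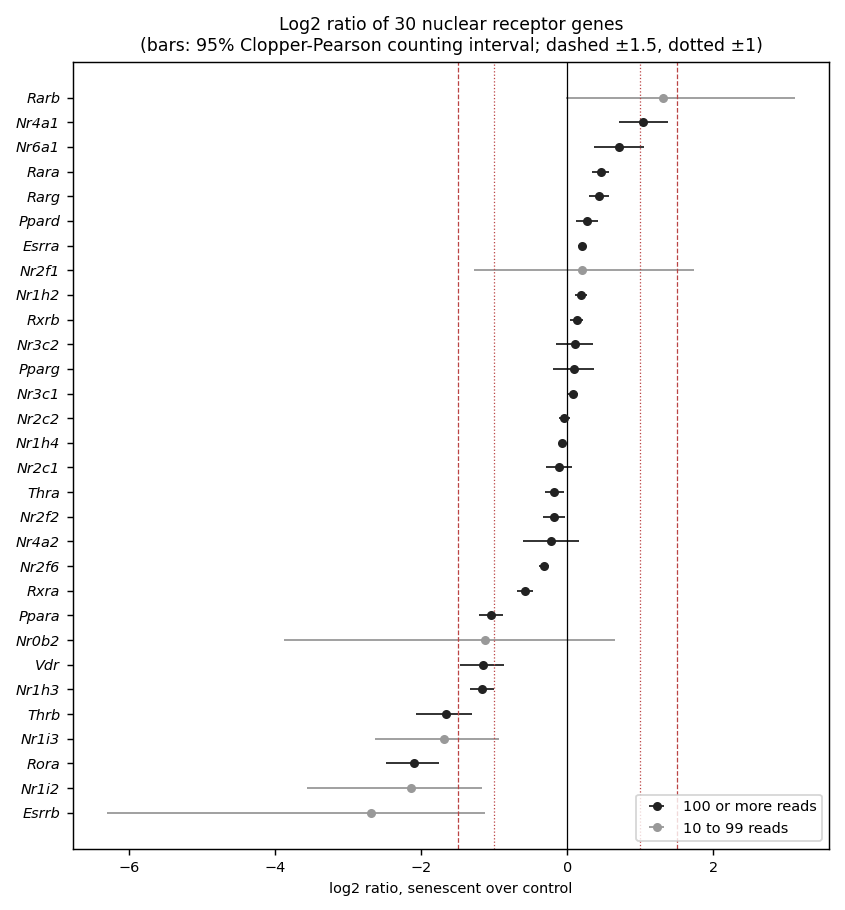
Log2 ratio of senescent over control for the 30 measured members, in the order of the ratio, with the 95% counting interval as a line. Thrb, Rora, Nr1i2, Nr1i3 and Esrrb lie below -1.5, and Nr4a1 at 1.03 is the highest member whose interval leaves out 0.

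**Figure D2:**
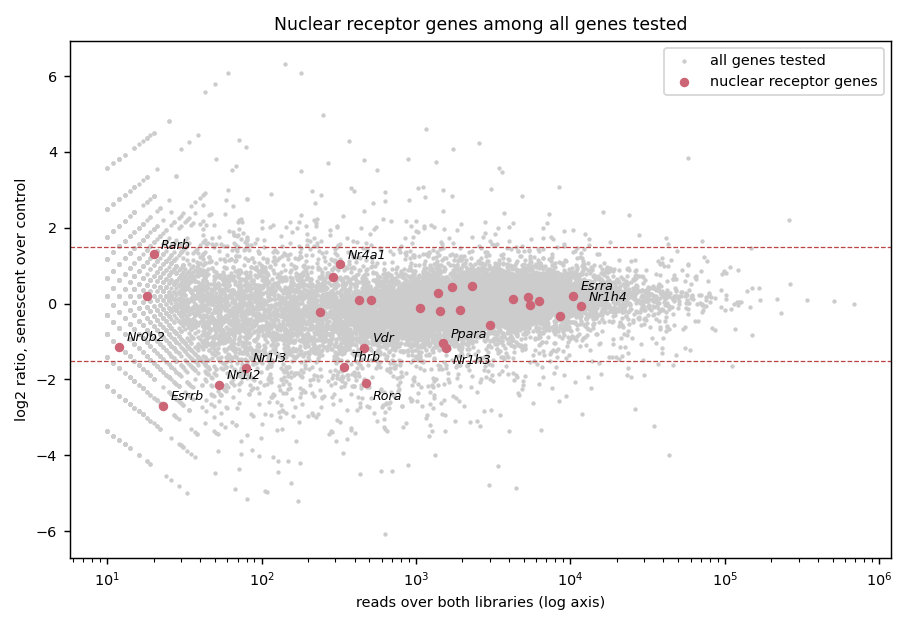
Log2 ratio of senescent over control against the reads over both libraries (log axis) for all 14383 genes tested (grey points), with the measured nuclear receptors marked. The 5 members below -1.5 have at most 474 reads over both libraries, and the receptors with the most reads, Nr1h4 and Esrra, lie near 0.

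A few genes made up most of the summed receptor level in both libraries. Nr1h4, which encodes the bile acid receptor FXR (chromosome 10, 89454234 to 89533585, minus strand, GRCm38), was the highest member, at 96.4 RPKM in control and 92.1 in senescent cells. It made up 27.7% of the summed RPKM of all 40 members in control and 28.0% in senescent cells, and the top 4 members made up 64.3% and 66.2%. In control cells Nr2f6 (58.7), Esrra (41.1), Nr1h2 (27.8) and Rxrb (19.0 RPKM) followed, each apart from the next by more than its counting interval. In senescent cells Esrra (47.5) and Nr2f6 (47.1) could not be ordered, and Nr1h2 (31.6) and Rxrb (20.8 RPKM) came next. Of the 29 neighbouring pairs in the order of the 30 measured members, 16 overlapped in their intervals in each library. By order, 9 members moved 3 or more places. Of these, 4 moved down: Nr1h3 went from place 6 to place 11, Ppara from 9 to 13, Vdr from 18 to 21 and Thrb from 20 to 23. The other 5 moved up: Rarg went from 13 to 8, Nr4a1 from 22 to 18, Nr6a1 from 26 to 22, Rara from 10 to 7 and Rarb from 30 to 27. Together the 40 members took 39174 control and 32023 senescent reads, which is 0.140% and 0.124% of the libraries, and their summed RPKM was 348.1 and 329.4.

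**Figure D3:**
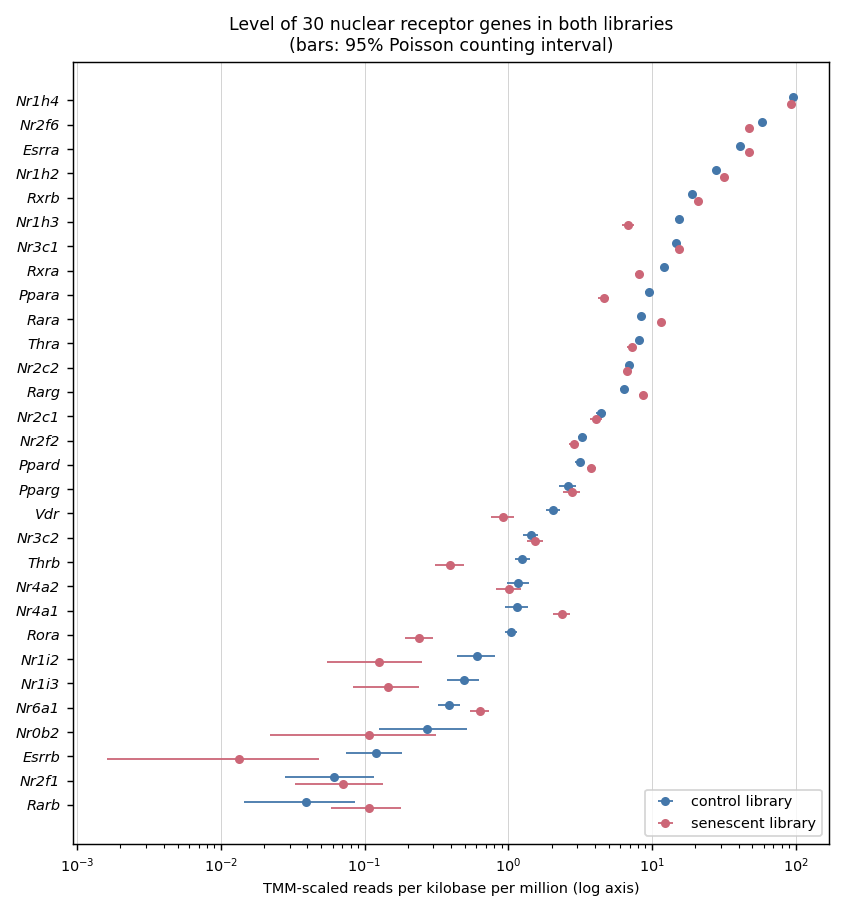
Level of each measured member in RPKM (log axis) in the control and the senescent library, with the 95% counting interval, in the order of the control level. Nr1h4 is highest in both libraries (96.4 and 92.1), and the low members such as Rarb, Nr2f1 and Esrrb have wide intervals.

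Of the thyroid hormone receptors, the beta form fell and the alpha form lay near the middle of all genes. Thrb, the main receptor form of liver (ENSMUSG00000021779), had 270 reads in control and 72 in senescent cells (log2 ratio -1.66, interval -2.07 to -1.30, 3.17-fold lower). Its level was 1.25 RPKM in control and 0.392 in senescent cells. Thra, the form that predominates in heart and bone, had 1096 and 826 reads (-0.18, interval -0.31 to -0.05), with 5.70% of its exon bases shared with Nr1d1 on the opposite strand. Per kilobase, Thrb made up 13.3% of the reads of the pair in control (interval 11.8% to 14.9%) and 5.15% in senescent cells (4.04% to 6.47%). Without the correction for length the shares were 19.8% and 8.02%.

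The promoters of the 5 members that fell are shown so that their CG content and motifs can be set beside the counts. The RefSeq windows on GRCm38.p6 run from 250 bases before to 50 after the annotated start, were taken from the start farthest upstream, and were found for 36 of the 40 members, not for Thra, Hnf4g, Nr3c1 and Nr5a1. They lie at chr14:17660710-17661009 (Thrb, plus strand), chr9:68653536-68653835 (Rora, plus), chr1:171213720-171214019 (Nr1i3, plus), chr16:38294775-38295074 (Nr1i2, minus) and chr12:86360867-86361166 (Esrrb, plus). Each is written 5′ to 3′ on the strand of its gene, and capitals mark every CG pair.
Thrb: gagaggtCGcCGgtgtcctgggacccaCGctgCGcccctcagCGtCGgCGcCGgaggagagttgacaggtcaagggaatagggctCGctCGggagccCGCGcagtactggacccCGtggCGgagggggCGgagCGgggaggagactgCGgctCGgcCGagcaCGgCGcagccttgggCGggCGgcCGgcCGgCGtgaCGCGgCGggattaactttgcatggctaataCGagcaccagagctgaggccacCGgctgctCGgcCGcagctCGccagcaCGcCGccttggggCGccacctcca
Rora: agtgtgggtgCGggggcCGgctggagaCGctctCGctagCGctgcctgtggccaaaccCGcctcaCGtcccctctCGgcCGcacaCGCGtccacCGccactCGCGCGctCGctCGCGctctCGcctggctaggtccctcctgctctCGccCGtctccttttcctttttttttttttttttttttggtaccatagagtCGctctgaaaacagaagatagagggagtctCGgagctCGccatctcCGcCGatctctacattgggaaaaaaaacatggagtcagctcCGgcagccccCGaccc
Nr1i3: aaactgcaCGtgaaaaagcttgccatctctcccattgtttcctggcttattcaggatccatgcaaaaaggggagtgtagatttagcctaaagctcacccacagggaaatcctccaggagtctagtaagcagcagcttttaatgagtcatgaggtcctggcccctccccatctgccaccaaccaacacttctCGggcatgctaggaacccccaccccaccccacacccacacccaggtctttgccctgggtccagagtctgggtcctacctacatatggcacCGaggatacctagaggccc
Nr1i2: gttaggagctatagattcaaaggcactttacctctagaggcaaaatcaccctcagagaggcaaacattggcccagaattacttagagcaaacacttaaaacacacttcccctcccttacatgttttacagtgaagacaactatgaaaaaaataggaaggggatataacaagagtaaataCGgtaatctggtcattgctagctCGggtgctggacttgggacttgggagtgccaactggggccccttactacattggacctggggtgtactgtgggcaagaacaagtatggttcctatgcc
Esrrb: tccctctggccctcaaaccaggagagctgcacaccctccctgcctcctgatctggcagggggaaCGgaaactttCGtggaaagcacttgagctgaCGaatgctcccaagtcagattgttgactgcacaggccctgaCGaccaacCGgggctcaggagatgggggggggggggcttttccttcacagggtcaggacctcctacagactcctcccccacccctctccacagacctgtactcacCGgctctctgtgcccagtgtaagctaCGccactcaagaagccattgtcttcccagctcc
The window of Thrb held 37 CG pairs and that of Rora 28, with observed over expected ratios of 0.95 and 1.05, whereas Esrrb held 7, Nr1i3 held 3 and Nr1i2 held 2 (0.27, 0.14 and 0.13). The median ratio was 0.389 over the 27025 genes with a window and 0.727 over the 28 measured members with a window. It was 0.412 over the 8 members lower past 1 and 0.775 over the 20 other measured members. The hexamer AGGTCA, which many nuclear receptors bind, was searched on both strands. It lay in 5 of the 36 member windows (13.9%), against 16.0% of all windows, and among the 5 members that fell it was found in Thrb. The GC box GGGCGG lay in 19 (52.8%), against 35.9%, and TATAAA in 5 (13.9%), against 14.2%. A match is a description of letters in the window.

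The retinoic acid receptors did not pass either threshold. Rara had 1069 reads in control and 1252 in senescent cells (log2 ratio 0.46, interval 0.34 to 0.58), and Rarg had 792 and 912 (0.43, 0.29 to 0.57). Both intervals lay above 0. Rarb, which is itself induced by retinoic acid in many cells, had 6 and 14 reads (1.31, interval -0.02 to 3.12), and 34.1% of its exon bases lie opposite Top2b, which had 5884 and 4210 reads. At most these 6 and 14 reads can have come from Top2b. Whether any did could not be told, because the use of strand in the counting is not given in the sources used here.

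The 3 PPARs, which sense fatty acids, had unlike values. Ppara, the receptor that drives fatty acid oxidation in liver (chromosome 15, 85734983 to 85802819, plus strand), had 1062 reads in control and 438 in senescent cells (log2 ratio -1.05, interval -1.21 to -0.89), past the threshold of 1 and not past 1.5. Ppard, expressed in most tissues, had 685 and 705 reads (0.27, 0.12 to 0.42). Pparg, the adipocyte form, had 223 and 202 (0.09, -0.19 to 0.37). The composition of the family differed between the libraries. Per kilobase, Ppara made up 62.4% of PPAR reads in control (interval 60.3% to 64.5%) and 41.3% in senescent cells (38.5% to 44.1%), while Ppard went from 20.6% to 33.9% and Pparg from 17.0% to 24.7%. Without the correction for length the senescent order turned, with Ppara at 53.9% and 32.6%, Ppard at 34.8% and 52.4% and Pparg at 11.3% and 15.02%.

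The liver X receptors, which sense oxysterols and turn on sterol efflux and lipogenesis, also differed from each other. Nr1h3 (LXRα; chromosome 2, 91184061 to 91202834, minus strand) had 1126 reads in control and 427 in senescent cells (log2 ratio -1.17, interval -1.33 to -1.01). Nr1h2 (LXRβ, found in most tissues) had 2708 and 2628 (0.19, 0.11 to 0.26). Nr1h3 made up 35.7% of LXR reads per kilobase in control (34.1% to 37.3%) and 17.8% in senescent cells (16.3% to 19.4%). Nr1h4, the bile acid receptor, had 6458 and 5262 reads and a log2 ratio of -0.07 (-0.12 to -0.01).

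The vitamin D receptor and both xenobiotic receptors were lower in the senescent library. Vdr (chromosome 15, 97854425 to 97910630, minus strand) had 336 reads in control and 128 in senescent cells (log2 ratio -1.16, interval -1.47 to -0.86), which passes the threshold of 1. Nr1i2 (PXR, a sensor of drugs and bile acids) had 45 and 8 reads (-2.14, -3.56 to -1.16). Nr1i3 (CAR, which induces Cyp2b enzymes) had 63 and 16 (-1.69, -2.64 to -0.94). Both xenobiotic receptors had low levels already in control cells, at 0.606 RPKM for Nr1i2 and 0.491 for Nr1i3. Of the exon bases of Nr1i3, 3304 (74.9%) lie opposite Tomm40l, which had 1385 and 722 reads (-0.71, -0.84 to -0.58). Whether any of the 63 and 16 reads of Nr1i3 came from Tomm40l cannot be told without strand.

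Of the RXRs, the shared dimer partners, Rxra had 1916 reads in control and 1097 in senescent cells (log2 ratio -0.57, interval -0.68 to -0.47) and Rxrb had 2197 and 2053 (0.13, 0.04 to 0.22). Neither passed a threshold. Rxra, the main form of liver, made up 38.8% of the RXR reads per kilobase in control (37.4% to 40.3%) and 28.0% in senescent cells (26.5% to 29.5%). Rxrg, a form of muscle and brain, had no reads in either library. A count of 0 allows up to 3 reads, or 0.103 CPM in control and 0.121 in senescent cells. The summed level of the RXRs was 31.1 and 28.9 RPKM. Their 14 listed partners summed to 182.3 and 170.8, or 85.8 and 78.7 without Nr1h4. Of these 14, all measured, 3 were lower past 1.5 (21.4%, against 5.60% of all genes) and 6 past 1 (42.9%, against 9.98%). Of the 3, only Thrb had at least 100 reads, while Nr1i2 had 45 and 8 and Nr1i3 had 63 and 16. Among the 12 measured orphan receptors, 2 were lower past 1.5 and the same number past 1 (16.7% at each threshold). Neither of the 2 measured steroid receptors was lower.

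**Figure D4:**
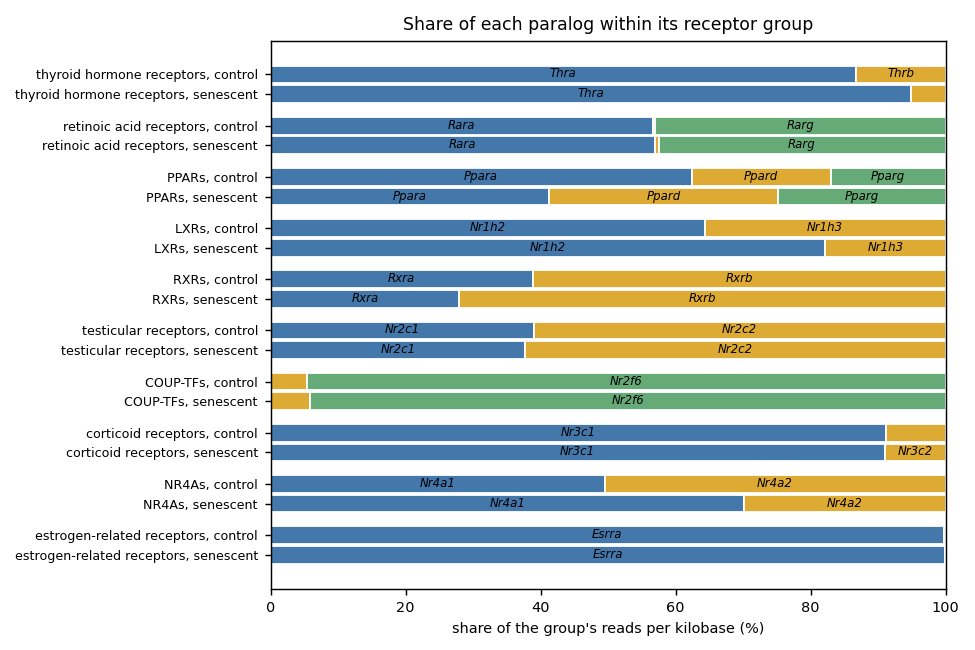
Share of each gene in the reads per kilobase of its receptor group, in percent, in the control and the senescent library, with narrow segments (Thrb in senescent cells, Rarb, Nr2f1, Nr2f2, Nr3c2 in control, Esrrb) left without a name. Thrb, Ppara, Nr1h3 and Rxra take a smaller share in the senescent library and Nr4a1 a larger one, while the shares of Rara, Rarg, Nr2c1, Nr2f6 and Nr3c1 differ by at most a few percentage points.

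Among the orphan receptors of liver and other tissues, Rora fell and the COUP and testicular receptors had ratios near 0. Rora, which binds DNA as a monomer and activates clock and lipid genes (chromosome 9, 68653786 to 69388246, plus strand), had 396 reads in control and 78 in senescent cells (log2 ratio -2.10, interval -2.48 to -1.76, 4.29-fold lower). Its level was 1.04 and 0.241 RPKM. The COUP transcription factors act mostly as repressors. Nr2f6, the most abundant, had 5090 and 3481 reads (-0.32, -0.38 to -0.26), with 54.4% of its exon bases opposite Ocel1 (813 and 734 reads). Nr2f2 had 821 and 616 (-0.18, -0.34 to -0.03), and Nr2f1 had 9 in each library. The testicular receptors Nr2c1 (593 and 466 reads, -0.12, -0.30 to 0.06) and Nr2c2 (3004 and 2489, -0.04, -0.12 to 0.03) both had intervals over 0. Nr2c2 shares 30.7% of its exon bases with Mrps25 on the opposite strand. Nr2e3, a photoreceptor gene, had no reads, and Hnf4g, an intestinal relative of the hepatocyte factor Hnf4a, had 2 and 1, under what could be compared at this depth.

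Of the estrogen-related receptors, which control mitochondrial genes without a known natural hormone, Esrra carried almost the whole family. Esrra had 5242 reads in control and 5163 in senescent cells (log2 ratio 0.21, interval 0.15 to 0.26), and 99.7% of the family's reads per kilobase in control. Esrrb, a factor of pluripotent cells and the placenta, had 21 and 2 reads (-2.69, -6.30 to -1.13), so its size is poorly set. Esrrg had 1 and 2 reads, at the limit of detection in both. The estrogen receptors were barely detected. Esr1 had 7 reads in control and 0 in senescent cells, and was under the 10 reads needed for a call. It was 1.99-fold lower if its senescent count is set at 3 reads, without the counting error of the 7 reads. The upper end of its log2 interval was -0.30. Esr2 had no reads.

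The steroid receptors present were those for corticoids. Nr3c1, the glucocorticoid receptor, had 3280 reads in control and 2950 in senescent cells (log2 ratio 0.08, interval 0.00 to 0.15). Nr3c2, the mineralocorticoid receptor, had 269 and 246 (0.10, -0.15 to 0.36). Nr3c1 made up 91.1% and 91.0% of the reads per kilobase of this group, and the progesterone receptor gene Pgr had no reads. The ratios of Nr3c1, Nr3c2 and Pparg changed sign when libraries were scaled by their total counts, to -0.03, -0.01 and -0.02.

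The NR4A receptors are immediate early genes that act without a ligand. Nr4a1 (NUR77) had 117 reads in control and 205 in senescent cells (log2 ratio 1.03, interval 0.70 to 1.38), the highest ratio among members whose interval leaves out 0. Nr4a2 (NURR1) had 138 and 101 (-0.22, -0.61 to 0.16), and Nr4a3 had 1 and 0. Of the reads per kilobase of this group, Nr4a1 took 49.5% in control (43.2% to 55.8%) and 70.1% in senescent cells (64.8% to 75.1%). Nr6a1, the germ cell nuclear factor, had 122 and 170 reads (0.70, 0.36 to 1.06), past no threshold. Nr0b2 (SHP), which lacks a DNA-binding domain and represses bile acid synthesis downstream of FXR, had 9 and 3 reads (-1.13, -3.88 to 0.65). Nr0b1 (DAX1) had no reads and Nr5a1 (SF-1), a factor of steroid-producing glands, had 0 and 1. In all, 5 members had no reads, 4 had at most 3 reads in each library and 1, Esr1, had under 10 reads over both.

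Of 17 coactivators measured 0 were higher and 1 was lower past 1.5 (5.88%, against 5.60% of all genes), with a median log2 ratio of 0.27 against -0.02 for all genes. The 1 was Ppargc1a (PGC-1α, a coactivator of PPARα and the estrogen-related receptors), with 105 and 16 reads (-2.42). Kat2b, an acetyltransferase, had 1546 and 619 (-1.09), and Pprc1, a relative of Ppargc1a, 2821 and 4861 (1.01). Of 14 corepressors none passed 1.5, with a median of 0.36 and a positive ratio in 13. Nrip1 (RIP140) had 944 and 1455 reads (0.85), Ncor1 5996 and 6529 (0.35), and Hr 407 and 717 (1.04).

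Of 14 measured genes that make, carry or break down the ligands, 2 were higher (14.3%, against 2.71% of all genes) and 4 lower (28.6%, against 5.60%) past 1.5. The median was -0.69, or -0.39 with at least 1 read and -0.45 with at least 100 reads. Enzymes of opposite steps in retinoid metabolism had ratios of opposite sign. Rdh10, which oxidises retinol to retinaldehyde, rose from 1039 to 7424 reads (log2 ratio 3.07, interval 2.97 to 3.16), and Dhrs3, which reduces retinaldehyde back, fell from 1507 to 332 (-1.95, -2.13 to -1.78). Aldh1a1, which makes retinoic acid, had 23129 and 14390 reads (-0.45). Slc16a10, a thyroid hormone transporter, had 753 and 243 (-1.40), and Fabp5, a fatty acid carrier, 2787 and 1250 (-0.93). The other genes called had few reads and were named after their values were seen: Aldh1a3 (3 and 15 reads) was higher, and Hsd11b2 (23 and 4), Fabp1 (24 and 4) and Fabp4 (22 and 6) were lower.

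Lists of genes that these receptors are known to regulate were described by counts, against 2.71% of all genes higher and 5.60% lower past 1.5 and a median of -0.02. Of 24 PPAR targets measured, 1 was higher and 6 were lower, with a median of -0.51. Pdk4, a kinase that restrains glucose oxidation, fell from 217 to 27 reads (log2 ratio -2.74), Ehhadh, of peroxisomal oxidation, from 515 to 132 (-1.73), and Acot1 from 4775 to 1344 (-1.60). Calls in sparse genes, named after their values were seen, included Plin5 (28 and 1 reads) and Fabp1, both lower. Cyp4a14 (0 and 10 reads), also named after its value was seen, was called higher. It was 3.91-fold higher if its control count is set at 3 reads, and the lower end of its log2 interval was 1.39. Of 9 LXR targets 0 were higher and 1 was lower (Lpl, 126 and 24 reads, -2.12), with a median of -0.65. Scd1, a fatty acid desaturase, had 6110 and 2256 reads (-1.21) and Lpcat3, a lysophospholipid acyltransferase, 4514 and 1845 (-1.06). These lists are not particular to 1 receptor, since many of their genes answer to several factors. Several also hold a member: Nr1h3 for LXR, Rarb for retinoic acid, Nr0b2 for FXR, Vdr for vitamin D and Esrra for the estrogen-related receptors.

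Of 16 glucocorticoid receptor targets, 0 were higher and 5 lower, with a median of -0.76. Whether the medium of the control cells held the same dexamethasone is not given in the sources used here, and its part in these values was not tested. Lcn2, also a gene of the acute phase, fell from 4293 to 125 reads (log2 ratio -4.86), Zbtb16 from 1081 to 146 (-2.65), Ddit4 from 11394 to 2096 (-2.21) and Nfkbia, an inhibitor of NF-κB, from 3554 to 748 (-2.02), while Fkbp5 (0.41) and Sgk1 (0.09) passed no threshold. The fifth was the phosphatase gene Dusp1 (1684 and 464 reads, -1.63), which was named after its value was seen. Of 8 retinoic acid receptor targets 1 (Dhrs3) was lower and 0 higher (median -1.13), with Tgm2, a transglutaminase, at 22696 and 6912 reads (-1.49). Of 7 FXR targets 2 were higher and 1 lower (median 0.85), and of 15 CAR and PXR targets 3 were higher and 2 lower (median -0.08). Abcc2, the canalicular conjugate pump, is in both lists and rose from 390 to 2690 reads (3.01). Of the 7 FXR targets only 3 had at least 100 reads, and the median of 0.85 was the value of Pltp (19 and 30 reads), named after its value was seen. With at least 100 reads the FXR median was 1.03, from these 3 genes. Among the CAR and PXR targets Gadd45b fell from 1084 to 302 (-1.61). Of 12 thyroid hormone receptor targets 1 was higher and 0 lower, with a median of -0.22. Hr (1.04), Gpd2 (0.73) and Fasn (0.29) had positive ratios and Ucp2 (-1.29), Bcl3 (-1.18) and Cpt1a (-0.48) negative ones. Sparse genes that made up the remaining calls, again named after their values were seen, were Abcb11 (2 and 11 reads, higher) and Baat (19 and 1, lower) for FXR, Cyp2c29 (9 and 33) and Cyp3a11 (2 and 18), both higher, and Ces2a (25 and 5, lower) for CAR and PXR, and Thrsp (1 and 10, higher) for thyroid hormone.

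**Figure D5:**
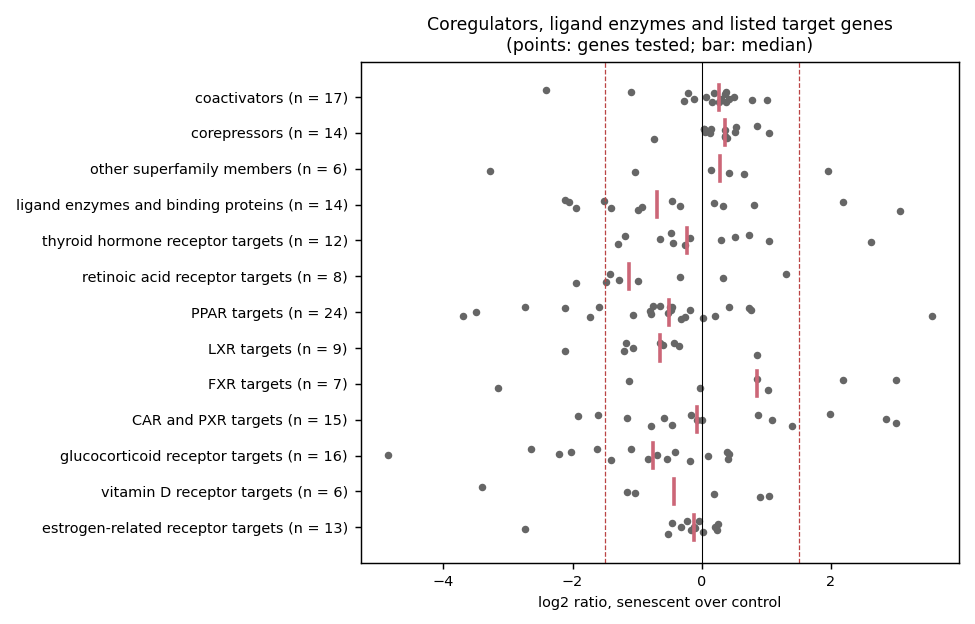
Log2 ratio of each measured gene (points) and the median (bar) of the lists of coregulators, ligand genes and receptor targets. The medians run from -1.13 for retinoic acid receptor targets to 0.85 for FXR targets (7 genes, 3 with at least 100 reads), and single genes spread widely within each list.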

How the data were processed

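RNA of control and senescent AML12 cells was measured in 1 library per condition. The authors deposited un-normalized counts of reads per Ensembl gene. The submitters' processing notes name CASAVA, STAR, DESeq2, edgeR and mm10 without their roles, and the counting tool, annotation and use of strand are not given in the sources used here. Each column was taken for the condition whose sample title begins with the same letter. Of the 35275 identifiers, 34490 matched a GENCODE M21 symbol.

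Library sizes were corrected with TMM factors (edgeR 4.0.16 under R 4.3.3; DESeq2 1.42.0 size factors, upper quartiles and total counts as alternatives). Ratios, with a prior count of 1, and intervals came from scipy 1.17.1, pandas 2.3.3 and numpy 2.4.6 (Python 3.11.15), and plots from matplotlib 3.10.9. RPKM used the union of GENCODE M21 exons. The script was tested on simulated data. With 1 library per condition no p-value was computed. Depth was 28021941 and 25738075 reads, which sets the counting intervals.

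The members, lists, thresholds and alternatives were chosen with earlier results of these data known. All 40 members are named. Of each other list, up to 4 genes with the largest absolute ratio among those with at least 100 reads, plus up to 2 with the most reads, could be named, and a few of these are not reported here. Albumin and genes that overlap a member, as well as the markers, are named beside the values they touch. The alternatives were other scalings, at least 1 or 100 reads, prior counts of 0.125 and 5, thresholds of 1 and 2, assumed coefficients of variation of 0.1 and 0.4, reads without length correction for the shares, and a count without members overlapping another gene by over 50% of their exons, which was chosen after seeing the data. A single promoter window per gene was used, at the start farthest upstream.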

Additional observations from a re-analysis of the deposited data

How the results depend on the processing

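No paired analysis was possible because there was 1 library per condition, and for the same reason no library could be left out. The count of members lower past 1.5 was 5 as reported, 6 with at least 1 read, 2 with at least 100 reads, 8 at a threshold of 1 and 3 at a threshold of 2, where Thrb and Nr1i3 were lost. It was 4 at an assumed coefficient of variation of 0.4, where Nr1i3 was lost, and 4 without Nr1i3 and Nr2f6, an alternative chosen after seeing the data. The count of members higher was 0 as reported and 1 at a threshold of 1. Scaling by total counts moved the median of all genes by -0.106 and the median of the members from -0.09 to -0.20, and it alone changed the sign of members, in Pparg, Nr3c1 and Nr3c2. Of the log2 ratios of members under the alternatives, 310 stayed within their counting interval and on their side of the threshold, 7 left the interval, all under total counts, 4 gained a call and 3 lost theirs. The medians of the CAR and PXR targets, the cholangiocyte markers and the thyroid hormone receptor targets turned positive with at least 1 read (0.15, 0.26 and 0.05), and that of the retinoic acid receptor targets came to about 0. The same filter gave -0.39 for the ligand genes (-0.69 as reported) and 0.01 for the stellate markers (-3.29, from 1 gene). At least 100 reads gave -1.06 for LXR targets (-0.65), 1.03 for FXR targets (0.85), -0.45 for the ligand genes and -0.07 for vitamin D receptor targets (-0.42). Total counts gave -0.18 for CAR and PXR targets, -0.23 for estrogen-related receptor targets, 0.18 for the other superfamily genes and 0.17 for coactivators. Of the shares within receptor groups, 30 left their interval without length correction and 16 stayed within it. At a threshold of 1, Nr4a1 lost its call under total counts (0.93) and upper quartiles (0.99). Depth limits the 6 measured members with under 100 reads most.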

Other observations

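Of 8 other superfamily genes outside the 40 members, 6 were measured, with a median log2 ratio of 0.28. Nr1d1 (REV-ERBα, a repressor that competes with RORα for DNA sites) rose from 124 to 413 reads (1.96, interval 1.67 to 2.27). Nr5a2 (LRH-1, an activator of bile acid synthesis genes) fell from 349 to 30 (-3.27). Hnf4a, a master factor of hepatocytes, had 8187 and 7705 reads (0.14). Nr1d1 and Thra overlap on opposite strands, so reads of that overlap cannot be told apart without strand.

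Of 6 vitamin D receptor targets measured, 1 was lower (16.7%, against 5.60% of all genes) and 0 were higher (against 2.71%) past 1.5, with a median of -0.42. The lower gene was S100g (35 and 2 reads), named after its value was seen. Of 13 estrogen-related receptor targets 1 was lower (7.69%, near the 5.60% of all genes) and 0 were higher, with a median of -0.13. Here the lower gene was Pdk4, which is also in the PPAR list.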
